A study of Mus musculus with 12 samples.

Results

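The late B cell fate regulators, as the set is named here, are 9 transcription factors and cofactors: Pou2af1, Pou2f1, Pou2f2, Bach1, Bach2, Bcl6, Prdm1, Mitf and Mef2c. Some also act earlier or in other cells, such as Mef2c in lymphoid progenitors and the widely expressed Bach1 and Pou2f1. All 9 were taken by gene symbol. Every probe set whose platform annotation gave one of these symbols alone was kept, which found 19 probe sets for 8 genes among 45037 probe sets and 18193 named genes. No probe set carries the symbol Pou2f1 in the annotation used here, so Pou2f1, the widely expressed octamer factor, was not analysed. Mef2c had 5 probe sets, Pou2f2 and Bach2 had 3 each, Bach1, Bcl6 and Mitf had 2 each, and Pou2af1 and Prdm1 had 1 each.

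Octamer factors bind a short DNA motif in immunoglobulin and other B cell promoters, and the product of Pou2af1 (OCA-B, also OBF-1) is their B cell coactivator. Bcl6 and Bach2 encode repressors needed for germinal centre B cells. Prdm1 encodes Blimp-1, the repressor that drives plasma cell differentiation, and Bach2 and Bcl6 are known to hold Prdm1 down. Mitf is known to restrain Irf4, which acts upstream of Prdm1. Mef2c acts early in lymphoid progenitors and again in mature B cells.

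The data are 12 Affymetrix arrays of 1 colour, on which each probe set has an intensity on a linear scale. All cells were Ebf1-/- progenitors of C57BL/6 mice, labelled as pre-pro-B cells, grown on OP9 stroma with 4% serum, SCF and Flt3L at 10 ng/ml each and IL-7 at 5 ng/ml. They were infected with Mig-EBF1, Mig-PAX5 or the MigR1 control retrovirus, and GFP+ cells were sorted 2 days later. There are 4 groups of 3 arrays: EBF1 with its controls in set 1, and PAX5 with its controls in set 2. The cells of all groups, controls included, lack a functional Ebf1 gene of their own, and the added factor came from a virus. The labels give no age and do not say whether replicates were separate cultures or animals. The p-values therefore cover only how far these arrays differ, which may be technical.

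Controls that carry the same number in both sets were nearly identical and were counted once: the robust SD of their log2 difference was 0.039 to 0.094, and 0.287 to 0.374 between controls of unlike number. PAX5 arrays 2 and 3 were also nearly identical (0.077) and were counted as 1 sample, which leaves n = 2 for PAX5 and n = 3 for each other group. Pax5 itself read 1849, 891 and 932 in PAX5 cells, against 12.8, 8.97 and 7.98 in set 2 controls. The progenitor genes Flt3 and Il7r were bright on every array (1028 to 2927 and 737 to 3111). Flt3 was nevertheless lower with both factors and did not overlap its controls. Its means were 1345 in EBF1 cells and 2474 in set 1 controls, and 1250 in PAX5 cells and 2455 in set 2 controls (limma adjusted p = 0.23 and 0.25). Il7r overlapped its controls in both comparisons. Of 15 measured T and NK cell markers 1 rose with EBF1 (Gzma, 2877 to 8223 in EBF1 cells against 38.2 to 61.7 in set 1 controls, limma adjusted p = 0.00017) and 0 with PAX5. Others of that list, such as Id2 (means of 815 in EBF1 cells and 1638 in set 1 controls), were not low, while Cd3e was at 23.3 or below. Where the Ebf1 probes lie relative to the mutation is not given, so Ebf1 was not used as a check. Of 14 early B-lineage markers 12 were measured, and the 10 other than Ebf1 and Pax5 had a summed intensity of 20790 to 42679 in EBF1 cells, against 2296 to 2960 in set 1 controls. PAX5 cells had 12352 to 14837, against 3056 to 3591 in set 2 controls. Much of the PAX5 sum was Cd24a (means of 6582 in PAX5 cells and 1433 in set 2 controls) and Blnk (4186 and 64.2). Cd72, Foxo1, Cd79a and Cd79b also lay above all set 2 controls, Ms4a1 and Vpreb1 overlapped them, and Ly6d and Igll1 lay below them. Ly6d had means of 74.4 in PAX5 cells and 117 in set 2 controls, and Igll1 352 and 397. By limma 8 of the 12 rose with EBF1, and 3 with PAX5, namely Blnk, Cd24a and the Pax5 that the virus carries. EBF1 array 3 stood apart in 19 measured markers of stroma, the feeder cell type: their summed intensity was 14178 there, against 2564 and 3837 in the other EBF1 arrays and 2299 to 3307 in set 1 controls. In bulk RNA, fewer cells of a type and less RNA per cell cannot be told apart.

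The promoters of the 4 members with the clearest separation between groups are shown here as context for those results. They are the 250 bases before a RefSeq transcription start in GRCm38.p6, on the strand of the gene and 5′ to 3′. Capitals mark the E-box CANNTG, the motif of the E proteins that work with EBF1.
Pou2af1 at chr9:51213440-51213689, plus strand: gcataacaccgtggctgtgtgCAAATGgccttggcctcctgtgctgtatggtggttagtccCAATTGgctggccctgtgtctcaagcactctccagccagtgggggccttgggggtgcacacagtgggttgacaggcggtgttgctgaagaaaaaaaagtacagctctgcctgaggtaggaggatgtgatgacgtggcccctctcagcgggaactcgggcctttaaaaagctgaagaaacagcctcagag
Bach2 at chr4:32417185-32417434, plus strand: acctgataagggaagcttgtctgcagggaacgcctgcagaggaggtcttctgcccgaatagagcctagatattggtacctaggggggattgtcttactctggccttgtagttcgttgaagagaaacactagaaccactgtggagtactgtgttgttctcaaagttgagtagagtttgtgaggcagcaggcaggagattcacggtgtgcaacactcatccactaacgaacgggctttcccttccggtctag
Bcl6, the first of 2 starts, at chr16:23988853-23989102, minus strand: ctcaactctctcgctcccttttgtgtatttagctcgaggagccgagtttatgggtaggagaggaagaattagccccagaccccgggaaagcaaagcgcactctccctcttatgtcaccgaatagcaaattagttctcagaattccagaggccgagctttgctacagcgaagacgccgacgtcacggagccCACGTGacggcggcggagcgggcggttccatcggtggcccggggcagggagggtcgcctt
Mef2c, the first of 3 starts, at chr13:83503784-83504033, plus strand: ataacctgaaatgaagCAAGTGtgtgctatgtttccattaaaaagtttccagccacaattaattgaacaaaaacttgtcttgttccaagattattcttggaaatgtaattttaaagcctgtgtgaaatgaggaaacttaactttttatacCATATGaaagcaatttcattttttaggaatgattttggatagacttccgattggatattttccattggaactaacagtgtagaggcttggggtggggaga
The EBF core CCCNNGGG, the PAX5 motif GCGTGAC, the octamer ATGCAAAT and the MEF2 core (CTA and TAG with 4 bases of any kind between) were also searched on both strands, and none was found in these 4 windows. Over all 16 start windows of the 9 genes, the EBF core occurred in 1 (Bach1), the PAX5 motif, octamer and MEF2 core in 0, and an E-box in 8. Among 32851 promoter windows of the same length, 11.8% hold the EBF core, 1.78% the PAX5 motif, 1.60% the octamer, 66.2% an E-box and 3.20% the MEF2 core. A match is a description of the letters and not a binding site.

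Adding EBF1 to these progenitors moved no member past the test, and neither did PAX5 in the unpaired fit. In both comparisons 0 of 19 member probe sets passed limma at Benjamini-Hochberg adjusted p under 0.05 over all 45037 probe sets, where 0.0977% of all probe sets passed with EBF1 (0.0933% higher and 0.00444% lower) and 0.515% with PAX5 (0.464% higher and 0.0511% lower). With the replicate number as a block, 0 passed with EBF1 and 2, both of Bach2, with PAX5, where 71 and 258 of all 45037 probe sets passed. At unadjusted p under 0.05 there were 8 member probe sets with EBF1 and 6 with PAX5, beside 9.97% and 8.51% of all probe sets. The 8 with EBF1 were the Pou2af1 probe set, all 5 of Mef2c, and 1 each of Pou2f2 and Bcl6. The 6 with PAX5 were all 3 of Bach2, both of Bcl6 and 1 of Pou2f2. Probe sets of 1 gene measure the same transcripts and are not independent.

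The arrays nevertheless separated from their own controls for several members. All EBF1 arrays lay above all set 1 controls for 2 probe sets and below them for 7, where 7.06% and 6.14% of all probe sets did so. With PAX5 the counts were 8 above and 0 below, against 8.14% and 8.77% of all probe sets. The 7 below with EBF1 were every Mef2c probe set and the dimmer ones of Bcl6 and Mitf. The 8 above with PAX5 were all those of Bach2, Bcl6 and Pou2f2. These counts and the medians that follow take a gene once per probe set. The median log2 change over the 19 was -0.22 with EBF1, beside 0.015 over all probe sets, and 0.12 with PAX5, beside -0.011. Log2 changes are of intensity plus 16, which understates the change of dim probe sets.

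**Figure D1:**
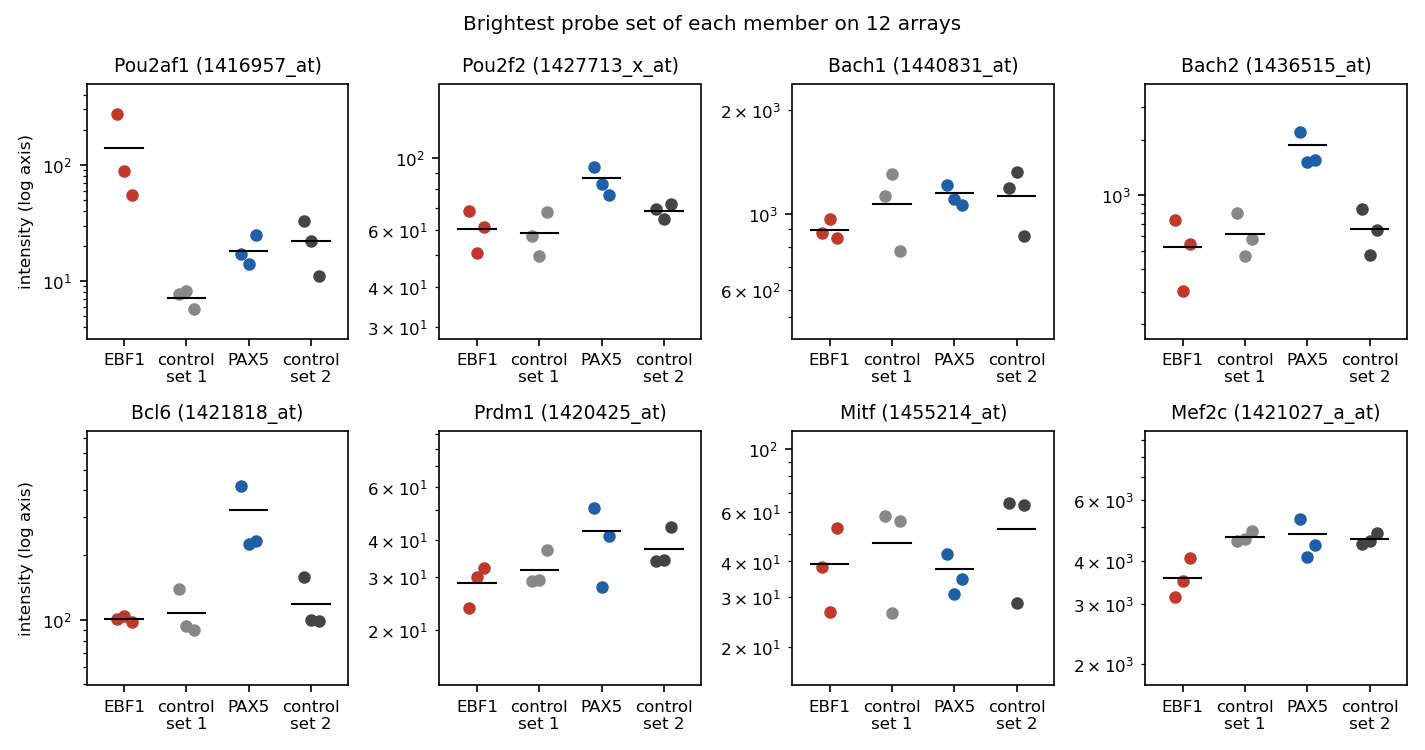
Intensity (log axis) of the brightest probe set of each of 8 members on the 12 arrays; points are arrays and bars are group means, with PAX5 arrays 2 and 3 averaged first. Pou2af1 is highest in EBF1 arrays (55.1 to 272), and Bach2 and Bcl6 are highest in PAX5 arrays (1508 to 2212 and 226 to 420).

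Pou2af1, the octamer coactivator, showed the greatest separation with EBF1 of the 8 genes. It read 272, 88.4 and 55.1 in EBF1 cells, against 7.67, 8.14 and 5.77 in set 1 controls. All 3 EBF1 arrays lay above the controls, but they spread among themselves, with array 1 highest and array 3 lowest. The mean was 139 ± 117 in EBF1 cells and 7.19 ± 1.25 in set 1 controls (SD, n = 3 each). The log2 change was 2.48 (SE 0.43, 95% interval 1.49 to 3.46) with limma adjusted p = 0.12. Without EBF1 array 3 the adjusted p was 0.012 with a change of 2.90, and without EBF1 array 1 it was 0.029 with a change of 1.89, so the call turned on which array was used. EBF1 array 3 was also the array with the lowest summed B-lineage markers (20790) and the highest stromal markers (14178), whose part in the Pou2af1 value was not tested.

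PAX5 cells did not show this pattern. Pou2af1 read 16.99, 14.0 and 24.9 in PAX5 cells, against 33.1, 22.3 and 11.1 in set 2 controls, and the groups overlapped. The log2 change was -0.12 (95% interval -1.23 to 0.98, limma adjusted p = 0.98). The EBF1 change exceeded the PAX5 change by 2.60 in log2 (SE 0.48, limma adjusted p = 0.049), and this difference between the 2 changes passed by a narrow margin. This call was lost in 9 of 17 alternatives, including the fits without control 1, 2 or 3 (adjusted p = 0.097, 0.076 and 0.073), and limma adjusted p ran from 0.012 to 0.44. In the controls themselves, which appear to be the same hybridisations in both sets, Pou2af1 averaged 22.1 in set 2 and 7.19 in set 1, so its level cannot be compared between the sets. The test of the difference takes the control means to cancel and adds no error for them, which these values do not bear out. EBF1 was in set 1 alone and PAX5 in set 2 alone, so factor and set cannot be told apart in this difference.

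The octamer factor Oct2, encoded by Pou2f2, was dim on all arrays. Its brightest probe set, 1427713_x_at, of the kind whose probes can also match other transcripts, read 68.6, 50.9 and 61.1 in EBF1 cells, against 57.4, 49.9 and 68.1 in set 1 controls. The same probe set read 93.6, 83.2 and 76.8 in PAX5 cells, against 69.4, 64.7 and 72.2 in set 2 controls. The EBF1 groups overlapped and the PAX5 arrays all lay above their controls, by a log2 change of 0.28 by limma (SE 0.15, adjusted p = 0.70). A second Pou2f2 probe set, 1443885_at, read 61.7, 55.8 and 47.8 in PAX5 cells, against 15.5, 29.8 and 17.2 in set 2 controls, a log2 change of 0.999 by limma (SE 0.24, adjusted p = 0.18). In EBF1 cells it overlapped its controls, at 8.84 to 28.7 against 11.5 to 16.2. The third, 1427725_a_at, lay above the controls in both comparisons, at 11.7 to 14.4 in EBF1 cells against 1.56 to 9.51 in set 1 controls, and at 33.7 to 43.5 in PAX5 cells against 26.9 to 29.9 in set 2 controls. Its log2 changes were 0.48 and 0.31 (limma adjusted p = 0.25 and 0.61).

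Bach2, which restrains plasma cell differentiation by repressing Prdm1, was higher on every PAX5 array in all 3 of its probe sets. The brightest, 1436515_at, read 2212, 1508 and 1560 in PAX5 cells, against 837, 473 and 646 in set 2 controls. PAX5 array 1 was highest, and the lowest PAX5 array still lay well above the highest control. The mean was 1873 ± 479 in PAX5 cells (SD, n = 2) and 652 ± 182 in set 2 controls (SD, n = 3), a ratio of 2.87. The log2 change was 1.51 (SE 0.36, 95% interval 0.69 to 2.34) with limma adjusted p = 0.19.

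The other Bach2 probe sets gave the same picture. Probe set 1437667_a_at read 2347, 1516 and 1571 in PAX5 cells, against 778, 458 and 631 in set 2 controls, a log2 change of 1.62 by limma (SE 0.33, adjusted p = 0.11). Probe set 1445460_at read 303, 288 and 282 in PAX5 cells, against 180, 155 and 195 in set 2 controls, a smaller log2 change of 0.69 by limma (SE 0.14, adjusted p = 0.097). No Bach2 probe set passed in this unpaired fit, although none overlapped between the PAX5 groups. With the replicate number as a block, 1436515_at and 1437667_a_at did pass with PAX5 (log2 changes 1.40 and 1.52, limma adjusted p = 0.020 and 0.009). Without PAX5 array 1, which leaves 1 sample assumed to vary like the other groups, the log2 changes were 1.25, 1.32 and 0.65 (limma adjusted p = 0.94, 0.78 and 0.71).

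EBF1 cells did not separate from their controls for Bach2. Probe set 1436515_at read 738, 301 and 543 in EBF1 cells, against 799, 467 and 582 in set 1 controls, a log2 change of -0.27 (95% interval -1.01 to 0.47, limma adjusted p = 0.85). In both groups array 1 was highest and array 2 lowest. The EBF1 change minus the PAX5 change was -1.87 for 1437667_a_at (SE 0.33, limma adjusted p = 0.041), which passed, and -1.78 and -0.66 for 1436515_at and 1445460_at (adjusted p = 0.066 and 0.072), which did not. With the replicate block 1436515_at passed too (-1.67, limma adjusted p = 0.0085). In all, 2 of 19 member probe sets passed for this difference, 1 in each direction, beside 1.05% of all probe sets (0.28% higher and 0.77% lower), and 13 were at unadjusted p under 0.05, beside 14.7%. Both changes are taken from the same controls, and the test of the difference adds no error for them.

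Bach1, the widely expressed relative of Bach2 that represses heme and oxidative stress genes, overlapped its controls in both probe sets and both comparisons. Probe set 1440831_at read 879, 963 and 852 in EBF1 cells, against 1126, 1304 and 779 in set 1 controls. PAX5 cells had 1211, 1101 and 1058, against 1189, 1322 and 862 in set 2 controls. The log2 changes were -0.22 with EBF1 (95% interval -0.62 to 0.18) and 0.047 with PAX5 (95% interval -0.40 to 0.49). Probe set 1449311_at had changes of 0.028 and -0.22, with limma adjusted p = 0.98 and 0.85.

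Bcl6, the repressor of the germinal centre programme, also stood higher on all PAX5 arrays, as Bach2 and the dim Pou2f2 did in all their probe sets. Probe set 1421818_at read 420, 226 and 232 in PAX5 cells, against 157, 99.99 and 98.7 in set 2 controls. PAX5 array 1 was again highest, and control 1 was the highest control. The mean was 325 ± 135 in PAX5 cells (SD, n = 2) and 119 ± 33.6 in set 2 controls (SD, n = 3), and the log2 change was 1.31 (SE 0.26, 95% interval 0.72 to 1.89, limma adjusted p = 0.093). Without PAX5 array 1 the change was 0.89 (adjusted p = 0.69). The dimmer probe set, 1450381_a_at, read 59.9, 44.4 and 37.1 in PAX5 cells, against 23.1, 35.2 and 26.3 in set 2 controls, a log2 change of 0.58 (limma adjusted p = 0.41).

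With EBF1 the brighter Bcl6 probe set read 101, 105 and 97.2, against 139, 93.1 and 89.4 in set 1 controls, and the groups overlapped (log2 change -0.052, 95% interval -0.58 to 0.47). The dimmer one lay below the controls on all EBF1 arrays, at 2.89 to 9.93 in EBF1 cells against 10.8 to 15.8 in set 1 controls, a log2 change of -0.40 (limma adjusted p = 0.49). The EBF1 change minus the PAX5 change was -1.36 and -0.98 for the 2 probe sets (limma adjusted p = 0.053 and 0.059). For 1421818_at, 7 of 18 alternatives brought this difference past the threshold, the replicate block among them (limma adjusted p = 0.042).

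**Figure D2:**
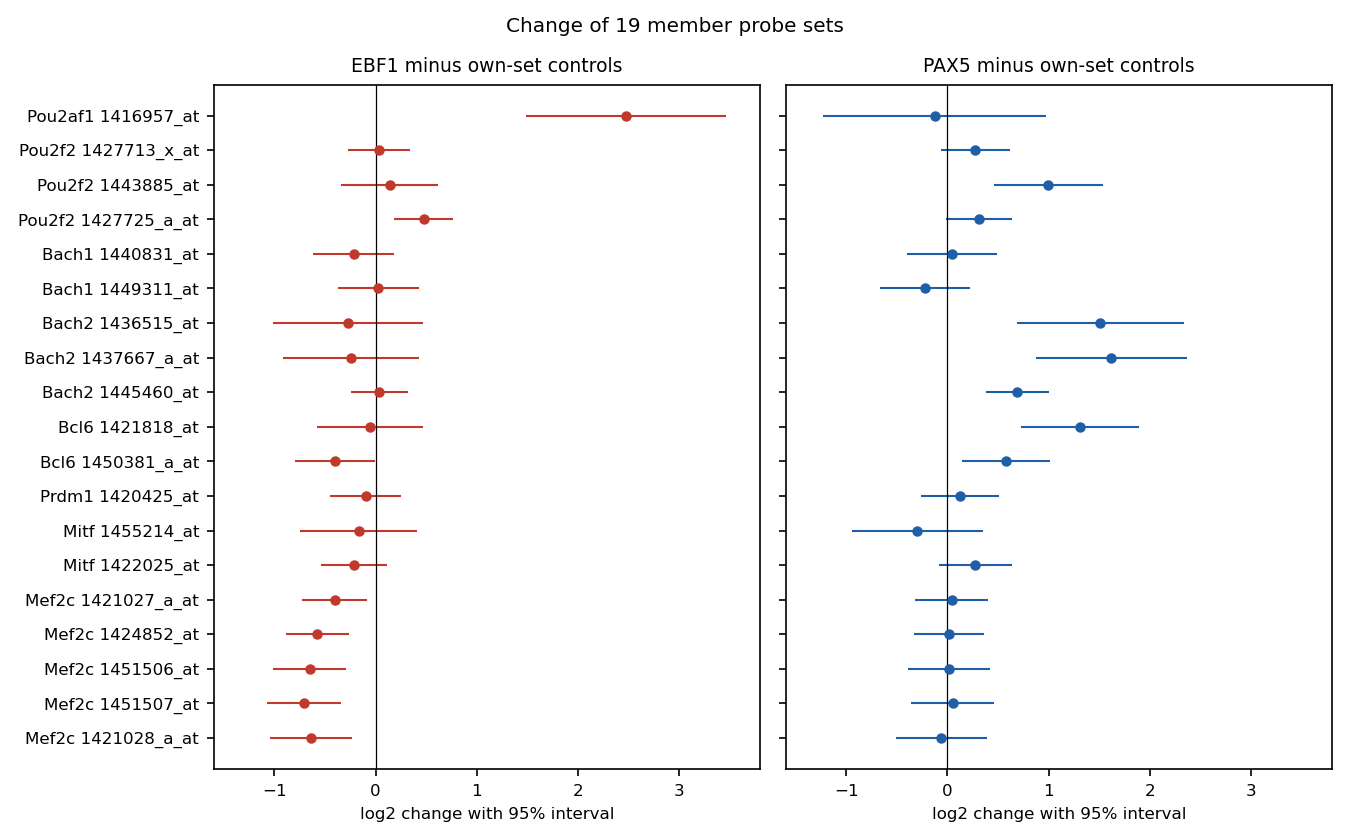
Log2 change of the 19 member probe sets with its 95% interval, EBF1 minus set 1 controls on the left and PAX5 minus set 2 controls on the right. Intervals of Pou2af1 and all 5 Mef2c probe sets lie away from 0 with EBF1, as do those of 1 dim probe set each of Pou2f2 and Bcl6; with PAX5 those of all 3 Bach2, both Bcl6 and 1 Pou2f2 probe sets do so, although none passed after adjustment over all probe sets.

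Prdm1, the plasma cell regulator, had 1 dim probe set. It read 23.7, 30.0 and 32.2 in EBF1 cells, against 29.1, 29.3 and 37.0 in set 1 controls. PAX5 cells had 51.0, 27.8 and 41.1, against 34.0, 34.2 and 43.9 in set 2 controls. Both pairs of groups overlapped, with log2 changes of -0.100 (95% interval -0.45 to 0.25) and 0.12 (95% interval -0.26 to 0.51).

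Mitf, a factor of melanocytes, mast cells and osteoclasts that also keeps B cells resting, was dim as well. Probe set 1455214_at read 38.1, 26.5 and 52.5 in EBF1 cells, against 57.9, 26.4 and 55.4 in set 1 controls. It read 42.6, 30.8 and 34.8 in PAX5 cells, against 64.1, 28.5 and 63.5 in set 2 controls. The groups overlapped in both comparisons, with log2 changes of -0.17 and -0.30 (limma adjusted p = 0.89 and 0.86). Its other probe set, 1422025_at, read 24.5 to 39.7 in EBF1 cells against 40.0 to 42.8 in set 1 controls, and 2.68 to 13.5 in PAX5 cells against 3.34 to 5.41 in set 2 controls. The control means of that probe set, 4.21 in set 2 and 41.2 in set 1, come from what appear to be the same hybridisations, so no level can be compared between the sets.

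**Figure D3:**
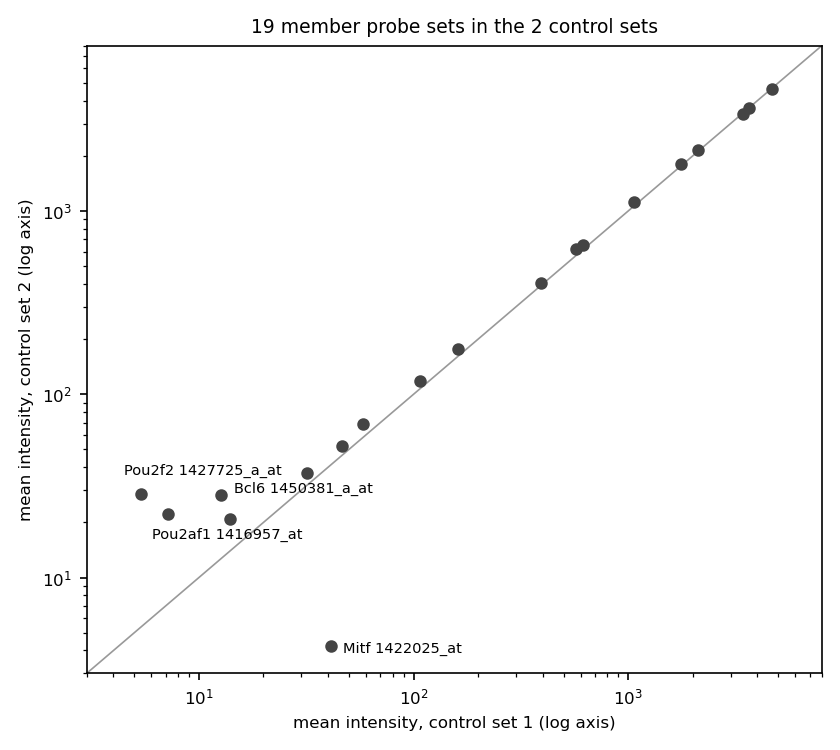
Mean intensity of the 19 member probe sets in set 2 controls (vertical, log axis) and set 1 controls (horizontal, log axis), each the mean of 3 arrays, with the line of equality. Bright probe sets lie on the line, and 4 dim ones, named in the plot, depart from it by more than 0.5 in log2 of intensity plus 16.

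Mef2c, a MADS-box factor of lymphoid progenitors, was bright in every group and lower on all EBF1 arrays in all 5 probe sets. The brightest, 1421027_a_at, read 3130, 3491 and 4083 in EBF1 cells, against 4577, 4617 and 4897 in set 1 controls. The mean was 3568 ± 481 in EBF1 cells and 4697 ± 174 in set 1 controls (SD, n = 3 each), and limma gave -0.40 in log2 (SE 0.14, adjusted p = 0.39). The highest EBF1 array lay below the lowest control.

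The other 4 Mef2c probe sets differed more. Probe set 1451507_at read 1075, 1609 and 1215 in EBF1 cells, against 2155, 2100.3 and 2065 in set 1 controls, a log2 change of -0.71 (SE 0.16, 95% interval -1.07 to -0.35, limma adjusted p = 0.18). Over the 5 probe sets the ratio of EBF1 to control means ran from 0.62 to 0.76, and the adjusted p from 0.18 to 0.39. EBF1 array 1 was the lowest array in every Mef2c probe set. Without EBF1 array 3, the one with the highest stromal markers, the changes ran from -0.50 to -0.73. The summed intensity of 12 measured dendritic cell markers, of 14 listed, was 5832 to 10192 in EBF1 cells, against 10770 to 14851 in set 1 controls. Much of that sum was Ccr9 (means of 2777 and 5350) and Flt3 (1345 and 2474). By limma 0 of the 12 passed and 5 were at unadjusted p under 0.05, beside 9.97% of all probe sets. Siglech, the defining plasmacytoid marker, read 21.3 to 22.7 in EBF1 cells against 143, 40.4 and 34.2 in set 1 controls (log2 change -1.02, limma adjusted p = 0.44). Tcf4, Flt3 and Klrd1 also lay below all set 1 controls. The rest of the list overlapped them, including Ccr9, Bst2 and Irf8. Batf3, Zbtb46 and Xcr1 had log2 changes of 0.22, 0.057 and 0.068. The part of dendritic cells in the Mef2c values was not tested.

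With PAX5, Mef2c did not separate from the controls. Probe set 1421027_a_at read 5305, 4099 and 4437 in PAX5 cells, against 4481, 4552 and 4827 in set 2 controls, and 1451507_at read 2412, 2003 and 2096, against 2189.8, 2122 and 2125. The groups overlapped in all 5 probe sets. Log2 changes ran from -0.062 to 0.051, with 95% intervals between -0.51 and 0.46. For 1451507_at the EBF1 change minus the PAX5 change was -0.76 (SE 0.18, limma adjusted p = 0.099).

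**Figure D4:**
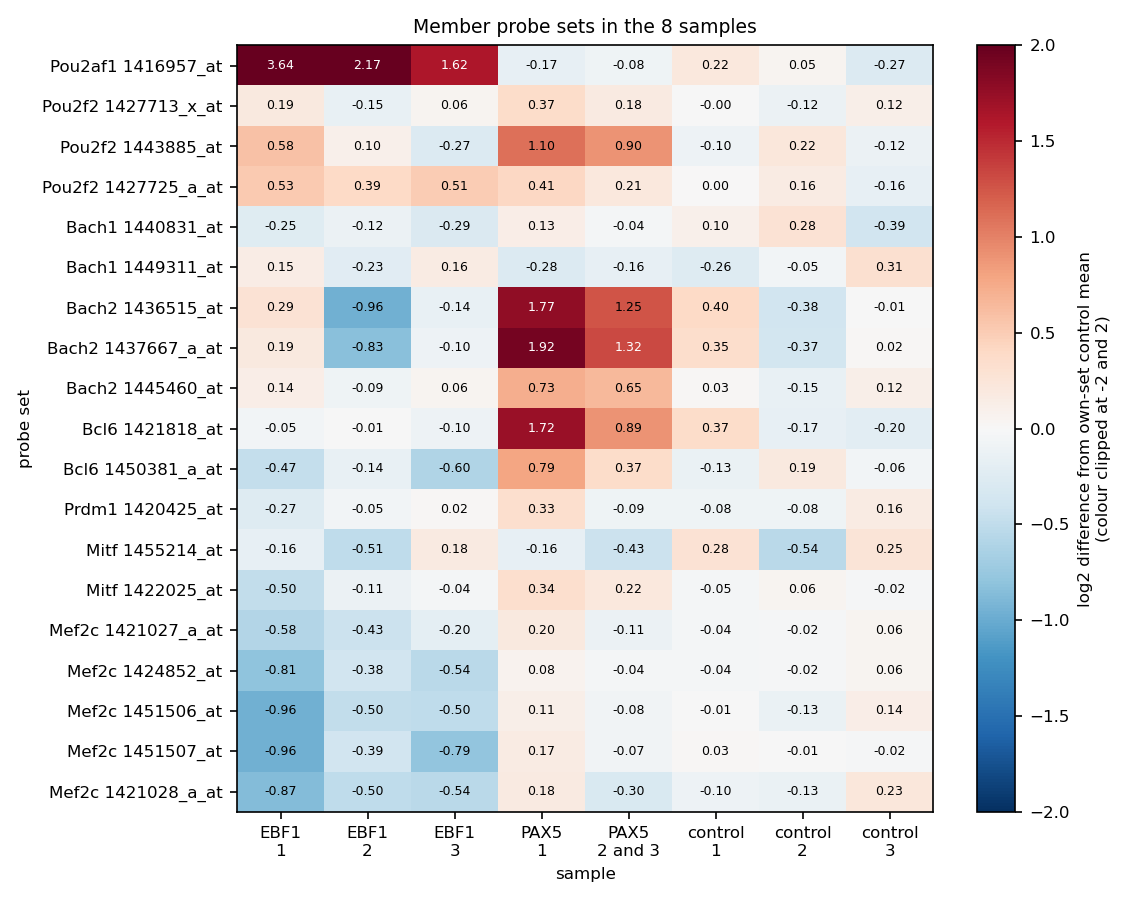
Log2 difference of each member probe set (rows) from the control mean of its own set in the 8 samples (columns, EBF1 and PAX5 left of the controls), with colour clipped at -2 and 2. Red cells gather in Pou2af1 with EBF1 (1.62 to 3.64) and in Bach2 with PAX5 (0.65 to 1.92), and blue cells in Mef2c with EBF1 (-0.20 to -0.96).

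The genes that followed a member most closely over the 8 samples were sought for the 2 members whose brightest probe set spanned over 2 log2 units. For Pou2af1 these were Zc3h12d, Kcna5 and Rsph9 (Pearson r 0.993, 0.991 and 0.991 over 8 samples). Their log2 changes with EBF1 were 2.23, 2.37 and 2.46, and with PAX5 0.044, -0.29 and -0.32. For Bach2 they were 1700111N16Rik, Taf4 and Adam17 (r 0.984, 0.984 and 0.976), with smaller changes with PAX5 of 0.44, 0.35 and 0.22. These correlations describe 8 samples that share controls and groups.

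The members' partners and known targets were read from 6 lists of 100 further genes, of which 93 were measured. With EBF1 1 gene rose and 0 fell past limma's test over all probe sets, beside 0.143% of all genes. With PAX5 6 rose and 0 fell, beside 0.704% of all genes. One of the 6 is Pax5, which the virus carries; without it 5 of 92 measured genes rose. Each gene was read by its brightest probe set. Counts at unadjusted p under 0.05 in the lists below stand beside 9.97% of all probe sets with EBF1 and 8.51% with PAX5.

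Spib was the gene that rose in both. It encodes an Ets factor of B cells and dendritic cells, depends on OCA-B in mature B cells, and is repressed by Blimp-1, so it stood in the octamer and the plasma cell list. It read 726, 898 and 259 in EBF1 cells, against 61.9, 33.9 and 37.2 in set 1 controls (log2 change 3.27, SE 0.41, limma adjusted p = 0.033). It read 1681, 1130.1 and 1268 in PAX5 cells, against 103, 76.1 and 60.4 in set 2 controls (3.93, SE 0.46, adjusted p = 0.0082). Of the 12 dendritic cell markers 1 rose with PAX5 (Itgax, 202 to 259 in PAX5 cells against 42.8 to 88.9 in set 2 controls, log2 change 1.56, limma adjusted p = 0.023). Irf8 read 3393 to 5275 in PAX5 cells against 863 to 1804 in set 2 controls (1.89, adjusted p = 0.082). Klrd1 also lay above its controls, at 380 to 626 in PAX5 cells against 137 to 368 in set 2 controls. Flt3 and Bst2 of the same list lay below all set 2 controls (log2 changes -0.94 and -0.64, limma adjusted p = 0.25 and 0.67). Flt3 read 1168 to 1328 in PAX5 cells against 1822 to 2870, and Bst2 1179 to 1350 against 1659 to 2629. The summed markers overlapped, at 12658 to 14249 in PAX5 cells against 10791 to 14726 in set 2 controls, and the part of such cells in the Spib values was not tested. EBF1 array 3 was lowest for Spib as it was for Pou2af1. No other of the 9 measured genes of the octamer list, of 10 listed, passed in either comparison; by limma 2 were at unadjusted p under 0.05 with EBF1 and 3 with PAX5, Spib included. The Spib call with EBF1 was lost without any 1 control (adjusted p = 0.15 to 0.18), without EBF1 array 1 or 2 or PAX5 array 1 (0.10 to 0.11), with a pseudocount of 1 or 64 (0.078 and 0.19) and with set 1 fitted alone (0.17), and with PAX5 it was lost without control 3 (adjusted p = 0.064) or PAX5 array 1 (0.16).

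The BCL6 list of corepressors and known repressed targets had 18 of 21 genes measured. With PAX5 2 of its genes rose and 0 fell, beside a median log2 change of -0.10 over the list and -0.0083 over all genes. Gpr183, a chemotactic receptor that positions activated B cells, read 582, 310.0 and 315 in PAX5 cells, against 22.3, 1.5 and 12.1 in set 2 controls (log2 change 4.06, SE 0.32, limma adjusted p = 0.001), a call lost with a pseudocount of 1 (adjusted p = 0.055). S1pr1, the receptor for exit into blood, read 367, 289 and 313 in PAX5 cells, against 148, 99.1 and 131 in set 2 controls (1.31, SE 0.17, adjusted p = 0.015). Both are known as genes that BCL6 represses, and both rose in the cells in which Bcl6 itself read higher. With EBF1 0 of the 18 passed limma and 4 were at unadjusted p under 0.05. S1pr1 read 58.0 to 73.0 in EBF1 cells against 94.5 to 127 in set 1 controls (log2 change -0.66, adjusted p = 0.19).

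In the plasma cell and Blimp-1 list 16 of 18 genes were measured. With PAX5 4 rose and 0 fell: Spib, the virally supplied Pax5 (log2 change 5.67, limma adjusted p = 4.9e-05), Ciita and Irf4. Ciita, the activator of MHC class II genes, read 309, 272 and 271 in PAX5 cells, against 46.2, 35.8 and 44.2 in set 2 controls (2.40, SE 0.14, adjusted p = 0.00021). Irf4, needed for plasma cells and also for pre-B cells, read 776, 511 and 557 in PAX5 cells, against 90.1, 52.9 and 120 in set 2 controls (2.72, SE 0.34, adjusted p = 0.012). Spib, Pax5 and Ciita are genes that Blimp-1 represses, while Irf4 acts upstream of it. The Irf4 call was lost without control 1 (adjusted p = 0.051) or PAX5 array 1 (0.21), the S1pr1 call without control 2, control 3 or PAX5 array 1 (0.052, 0.070 and 0.24). A pseudocount of 1 (adjusted p = 0.060 and 0.064) or set 2 fitted alone (0.051 and 0.10) also ended the Irf4 and S1pr1 calls. With EBF1, Spib alone of the 16 passed and 8 were at unadjusted p under 0.05, beside 9.97% of all probe sets. Jchain, named after its values were seen, which encodes the joining chain of secreted antibodies, read 5873, 4826 and 7241 in EBF1 cells, against 7847, 6921 and 8008 in set 1 controls, and 4291, 5645 and 5515 in PAX5 cells, against 7604, 6768 and 7748 in set 2 controls (log2 changes -0.36 and -0.59, adjusted p = 0.55 and 0.41).

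**Figure D5:**
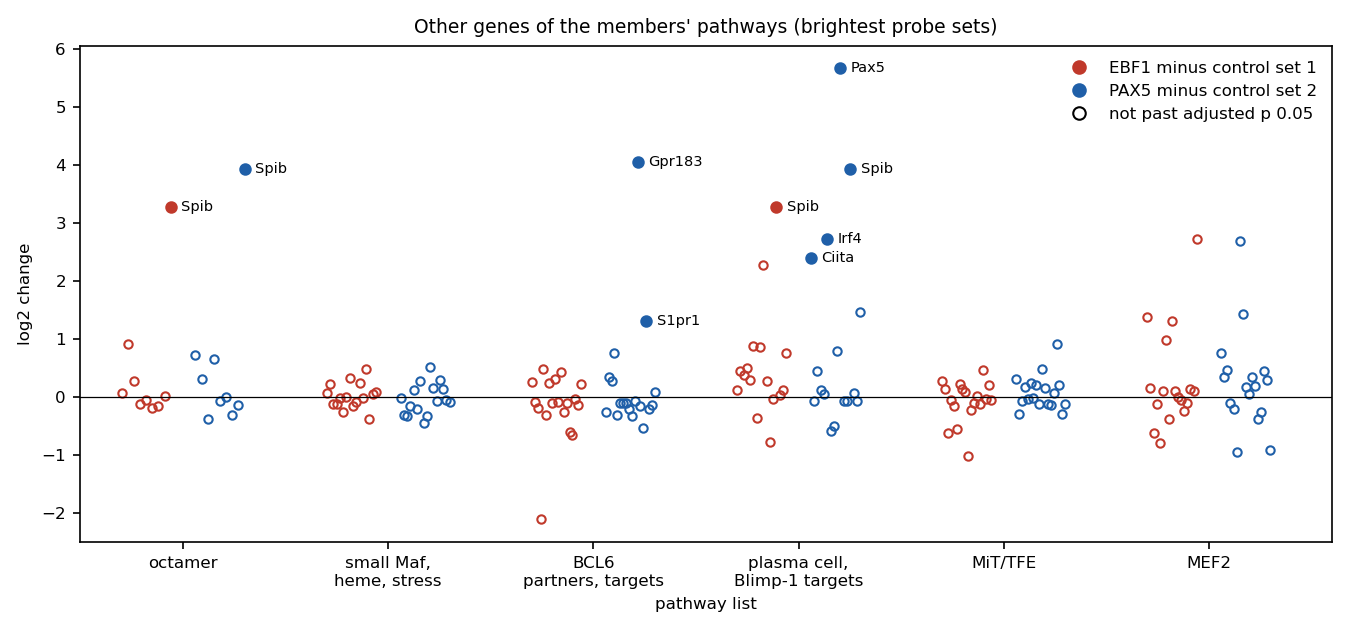
Log2 change (vertical) of the other genes of the members' pathways in 6 lists (horizontal), EBF1 minus set 1 controls in red and PAX5 minus set 2 controls in blue; filled points passed adjusted p 0.05 and are named. Filled points are 1 gene with EBF1 and 6 with PAX5 (5 without the Pax5 that the virus carries), and all lie above 0.

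The remaining 3 lists held no gene past the test in either comparison. Of 17 genes in the Bach list, the small Maf partners, competing factors and stress targets, 16 were measured and 1 was at unadjusted p under 0.05 in each comparison by limma. The iron exporter gene Slc40a1 had the greatest change with EBF1 (0.48, adjusted p = 0.47), and Nfe2l2, which encodes the stress factor that competes with Bach proteins, with PAX5 (0.52, adjusted p = 0.47). Nfe2l2 read 2240, 1969 and 2052 in PAX5 cells, against 1843, 1398 and 1238 in set 2 controls.

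In the Mitf list 18 of 19 genes were measured, with 3 at unadjusted p under 0.05 for EBF1 and 1 for PAX5 by limma. Kit, the receptor of stem cell factor, had the greatest change with EBF1 and read 43.5, 37.9 and 190 in EBF1 cells, against 162, 99.4 and 253 in set 1 controls (log2 change -1.02, adjusted p = 0.57). Tfeb, a relative of Mitf, had the greatest with PAX5 and read 394, 281 and 306 in PAX5 cells, against 167, 156 and 199 in set 2 controls (0.91, adjusted p = 0.066). Mast cell markers were low, with a summed intensity of 10 measured genes of 371 to 466 in EBF1 cells, 414 to 619 in PAX5 cells and 371 to 523 over all controls.

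The Mef2 list, of related factors, class IIa deacetylases, upstream kinases and targets, was measured in all 17 genes, with 4 at unadjusted p under 0.05 for EBF1 and 3 for PAX5 by limma. Rag1, a recombinase gene, read 3435, 2954 and 1368 in EBF1 cells, against 552, 118 and 623 in set 1 controls (log2 change 2.73, adjusted p = 0.16). Jun read 1274, 184 and 191 in PAX5 cells, against 73.9, 56.4 and 60.5 in set 2 controls (2.69, adjusted p = 0.15), and PAX5 array 1 alone was far above the others. Mef2a and Mef2d, the close relatives of Mef2c, named after their values were seen, had changes of -0.23 and 0.14 with EBF1 and -0.37 and 0.44 with PAX5, with limma adjusted p from 0.58 to 0.89.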

How the data were processed

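Total RNA of GFP+ cells was hybridised to Affymetrix arrays after standard biotin labelling, per the labels' protocols. Each probe set has a linear intensity as deposited by the authors, whose summarisation and normalization are not given in the sources used. Median intensity per array ran from 55.1 to 60.6 (set 1) and 65.3 to 68.9 (set 2), and 2.50% to 3.05% of the values of an array are listed at exactly 1. The number of arrays limits the precision. Symbols came from the platform annotation: 34945 probe sets had 1 symbol, 932 several and 9160 none, and 34741 matched GRCm38.p6 by Entrez ID. Promoter sequences are from RefSeq, and all 9 members matched.

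Intensities were used as log2(intensity + 16), without filter or further normalization. The control mean of each set was subtracted, near-identical arrays were averaged (8 samples, 5 residual and 3.68 prior degrees of freedom), and limma 3.58.1 (R 4.3.3) was fitted to all probe sets with Benjamini-Hochberg adjustment. The fit was tested on simulated data. Control and EBF1 arrays of equal number deviated together (correlations 0.35, 0.61 and 0.39 over 12889 bright probe sets). EBF1 arrays 2 and 3 were closest to the set 1 controls of equal number. EBF1 array 1 was closer to control 2 than to control 1 (robust SD 0.283 and 0.318). The labels state no pairing, so whether the numbers pair the arrays is not settled, and the unpaired fit stays the main one. PAX5 and control arrays correlated at 0.41, 0.19 and 0.33, also above 0.1. PAX5 arrays 2 and 3 are nearly identical and do not give 3 separate pairs, and their correlations follow in part from that of array 1. PAX5 arrays 1, 2 and 3 were all closest to control 1 among set 2 controls (robust SD 0.237, 0.210 and 0.225). Arrays 2 and 3 lay further from the controls of equal number (0.281 and 0.274). Pairing by number is therefore not borne out for PAX5 arrays 2 and 3. In the block, their mean was shared equally between replicates 2 and 3. The result with the block is given where it changes a call. Named genes are all members, list genes that passed and, in a list with none, the greatest change in each comparison, plus the 3 genes most like any member spanning over 2 log2 units. The members and lists were chosen with earlier results of these data known. Figures were made in Python 3.11.15 (matplotlib 3.10.9, pandas 2.3.3).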

Additional observations from a re-analysis of the deposited data

Results flagged for a closer look

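The EBF1 and PAX5 changes of 2 member probe sets differed by limma's test of the difference itself. For Pou2af1 the EBF1 change minus the PAX5 change was 2.60 in log2 (adjusted p = 0.049), and for Bach2 probe set 1437667_a_at it was -1.87 (adjusted p = 0.041). Each lost its call under 9 alternatives, of 17 for Pou2af1 and 16 for Bach2. With 3 arrays a group, single arrays were not tested for standing apart.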

How the results depend on the processing

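Between 0 and 2 member probe sets passed with EBF1 over 19 alternatives, 0 to 4 with PAX5, and 0 to 7 for the difference over 18. With all 12 arrays counted separately, 2 passed with EBF1 (Pou2af1 and Mef2c 1451507_at), 4 with PAX5 (Bach2 1437667_a_at and 1445460_at, Bcl6 1421818_at and Pou2f2 1443885_at), 0 for the difference, and 2 and 10 list genes with EBF1 and PAX5. That setting treats near-identical arrays as separate samples, so its p-values with EBF1 and with PAX5 are too small. For the difference it also adds the error of the controls of both sets, which the main fit takes to cancel and which raises the SE. Over all 45037 probe sets the setting with 12 arrays gave 295 with EBF1, 638 with PAX5 and 208 for the difference. With the replicate block, 0 members passed with EBF1, 2 with PAX5 (both brighter Bach2 probe sets, adjusted p = 0.020 and 0.009) and 4 for the difference. Over all probe sets that block gave 71 with EBF1, 258 with PAX5 and 687 for the difference, and it changed no other count in this paragraph by over 1.5 times. A pseudocount of 1 left 0 for the difference and 0 and 3 list genes. A pseudocount of 64 gave 1 with PAX5 (Bach2 1445460_at), 1 for the difference and 0 list genes with EBF1. Sets fitted alone gave 0 list genes with EBF1. A trend with robust variance gave 7 for the difference, where 747 of all 45037 probe sets passed. Leaving out 1 replicate gave 0 to 1 members with EBF1, 0 to 0 with PAX5, 0 to 3 for the difference, and 0 to 4 and 3 to 7 list genes. Over all probe sets, 44 passed with EBF1 (14 to 597 over the alternatives, the most without EBF1 array 3), 232 with PAX5 (50 to 638, the fewest without PAX5 array 1) and 473 for the difference (78 to 874). The cause of these moves was not tested.

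No called value turned its sign; uncalled values near 0 did. With EBF1 and 1 replicate left out, these ran from -0.11 to 0.18 for Bach1 1449311_at, -0.15 to 0.13 for Bcl6 1421818_at, -0.051 to 0.13 and -0.083 to 0.34 for Pou2f2 1427713_x_at and 1443885_at, -0.024 to 0.10, -0.55 to 0.073 and -0.47 to 0.047 for Bach2 1445460_at, 1436515_at and 1437667_a_at, and -0.43 to 0.0055 for Mitf 1455214_at. With PAX5 they ran from -0.35 to 0.079 for Pou2af1, -0.13 to 0.17 for Bach1 1440831_at, -0.088 to 0.22 for Prdm1, and, for Mef2c, -0.077 to 0.086 (1451506_at), -0.30 to 0.056 (1421028_a_at), -0.11 to 0.074 (1421027_a_at), -0.042 to 0.044 (1424852_at) and -0.066 to 0.067 (1451507_at). The Mitf 1455214_at difference ran from -0.043 to 0.30. Counting 12 arrays gave -0.0097, -0.0024 and -0.014 for Mef2c 1421027_a_at, 1424852_at and 1451506_at with PAX5. Means over probe sets gave 0.024 for Gpr183 with EBF1, -0.087 for Bach1 with PAX5 and -0.18 for the Mitf difference. Quantile normalization gave -0.011 for Pou2f2 1427713_x_at with EBF1, and a pseudocount of 64 gave -0.00050 for the Pou2f2 1427725_a_at difference. A filter on dim probe sets, fits of 1 value a gene and sets fitted alone give no value for some probe sets or for the difference. Low signal (Pou2af1, Pou2f2, Prdm1, Mitf) limits what can be seen.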

Other observations

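The 2 control sets list very different intensities for some dim genes although their bright probe sets are nearly identical. Over all probe sets 10.7% differed by more than 0.5 in log2 of intensity plus 16, against 1.44% of bright ones. Among genes of the lists, Tfeb averaged 174 in set 2 controls and 2.54 in set 1 controls. Csf1r, the macrophage growth factor receptor, named after its values were seen, read 466, 527 and 523 in set 2 controls and 33.6, 35.2 and 30.2 in set 1 controls. Pax5 ran the other way, at 12.8, 8.97 and 7.98 in set 2 controls and 65.0, 54.3 and 78.3 in set 1 controls. How the authors summarised the sets is not given, and the cause was not tested.

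Other genes of the lists, named after their values were seen, also kept their groups apart without passing. Mzb1, a chaperone of antibody-secreting cells, had a log2 change of 2.28 with EBF1 (limma adjusted p = 0.12). Ccl3, a chemokine that BCL6 represses, had -2.10 with EBF1 (adjusted p = 0.21). Zfp36l1, an RNA-binding protein gene, had 1.46 with PAX5 (adjusted p = 0.12).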
